A study of Mus musculus with 9 samples.

Results

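The acid secretion machinery of the osteoclast was described here by 10 genes, taken by name from a table of 28379 genes: Car2, Tcirg1, Atp6v0a1, Atp6v0d1, Atp6v1a, Atp6v1b2, Atp6v1c1, Atp6v1e1, Clcn7 and Ostm1. All 10 were found once in the table and all 10 passed the filter on low counts. Bone marrow-derived macrophages (BMDMs) of 10-week-old C57BL/6J mice, grown in M-CSF (20 ng/ml), were kept for 48 h in 3 groups of 3 libraries each. PBS libraries had no RANKL. RANKL libraries had 100 ng/ml of RANKL, the cytokine that turns macrophages into osteoclasts. To this, in libraries of the RANKL + Vit D + K group, called the vitamin group below, vitamin D as calcitriol (1000 nM) and vitamin K as menaquinone-4, or MK4, were added. The labels give 20 μM of MK4, whereas the methods of the study give 40 μM. M-CSF was present in every group, the RNA is described as pooled, and the number of mice or cultures behind each library is not given, so the p-values measure the spread between these libraries, which may be technical.

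An osteoclast dissolves bone mineral by pumping protons into the sealed space between its ruffled border and the bone. Carbonic anhydrase 2 makes the protons and bicarbonate from carbon dioxide, the vacuolar proton pump (V-ATPase) moves the protons out, and the chloride-proton exchanger ClC-7, with its partner OSTM1, carries the chloride that balances the charge. The pump has a membrane part, V0, which forms the proton channel, and a cytosolic part, V1, which splits ATP, and the same pump acidifies lysosomes in macrophages and in most other cells.

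RANKL raised 1 of the 10 genes, Car2, from 80 counts in the 3 PBS libraries together to 3915 (2.35% of all tested genes were called higher), and with the vitamins it had 24. Of the 10 genes, the pump subunits and Clcn7 were already at 20.6 FPKM or more in every PBS library. Some pump subunits outside the 10, among them Atp6v0d2, were lower there. With the vitamins, Atp6v1c1 (2.71-fold), Atp6v1a (2.10-fold), Atp6v0a1 and Clcn7 (both under 2-fold) were called higher than with RANKL alone (as were 16.4% of all tested genes), but of these calls only that of Atp6v1c1 held without each library in turn: that of Clcn7, whose libraries overlapped, was lost in 8 of 9 such fits, that of Atp6v1a in 3 and that of Atp6v0a1 in 2. Tcirg1, the a3 subunit of the osteoclast pump, lay between 128.5 and 148.6 FPKM in all 9 libraries. FPKM is the number of fragments scaled to the length of the transcript and to the sum of all fragments in the library, so it allows levels of genes of different length to be compared.

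Total counts ran from 65915112 to 68229647 per library. Replicate 2 of the vitamin group stood apart: its mean correlation with its own group was 0.9555 (log2 CPM over all 17002 tested genes), the lowest of the 9 libraries, which ranged up to 0.9735. The SD of log2 CPM within groups was 0.774 in the vitamin group, 0.596 in the RANKL group and 0.594 in the PBS group. Calls of the 10 genes that changed without this library are therefore given both ways. The macrophage identity of the cells was checked by 8 marker genes, all of them expressed, and their summed FPKM ranged from 26400 to 30600 in the PBS group, from 16700 to 24400 in the RANKL group and from 4490 to 11500 in the vitamin group. Lyz2 made up most of each sum (means of 26700, 19800 and 6070 FPKM). With the vitamins against RANKL, 6 of the 8 were called lower, Itgam was not called, and Cd68 was higher (552 to 718 FPKM, log2 fold change 0.535, adjusted p = 0.0143, edgeR). The 9 osteoclast markers summed to between 20.6 and 27.4 FPKM, between 467 and 977 FPKM and between 48.5 and 84.5 FPKM in the same order. With the vitamins against RANKL, 8 of the 9 were called lower, and Itgb3 was higher (3.17 to 11.5 FPKM, log2 fold change 2.08, adjusted p = 0.0186, edgeR). Neutrophil markers (8 genes) summed to 11.1 to 128 FPKM under PBS, 11.3 to 148 FPKM under RANKL and 0.551 to 1.72 FPKM with the vitamins, where Ltf, Camp, Elane and Mpo were at 0. The part of these markers in the results below was not tested, and in such bulk RNA fewer cells of a type and less RNA per cell cannot be told apart.

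**Figure D1:**
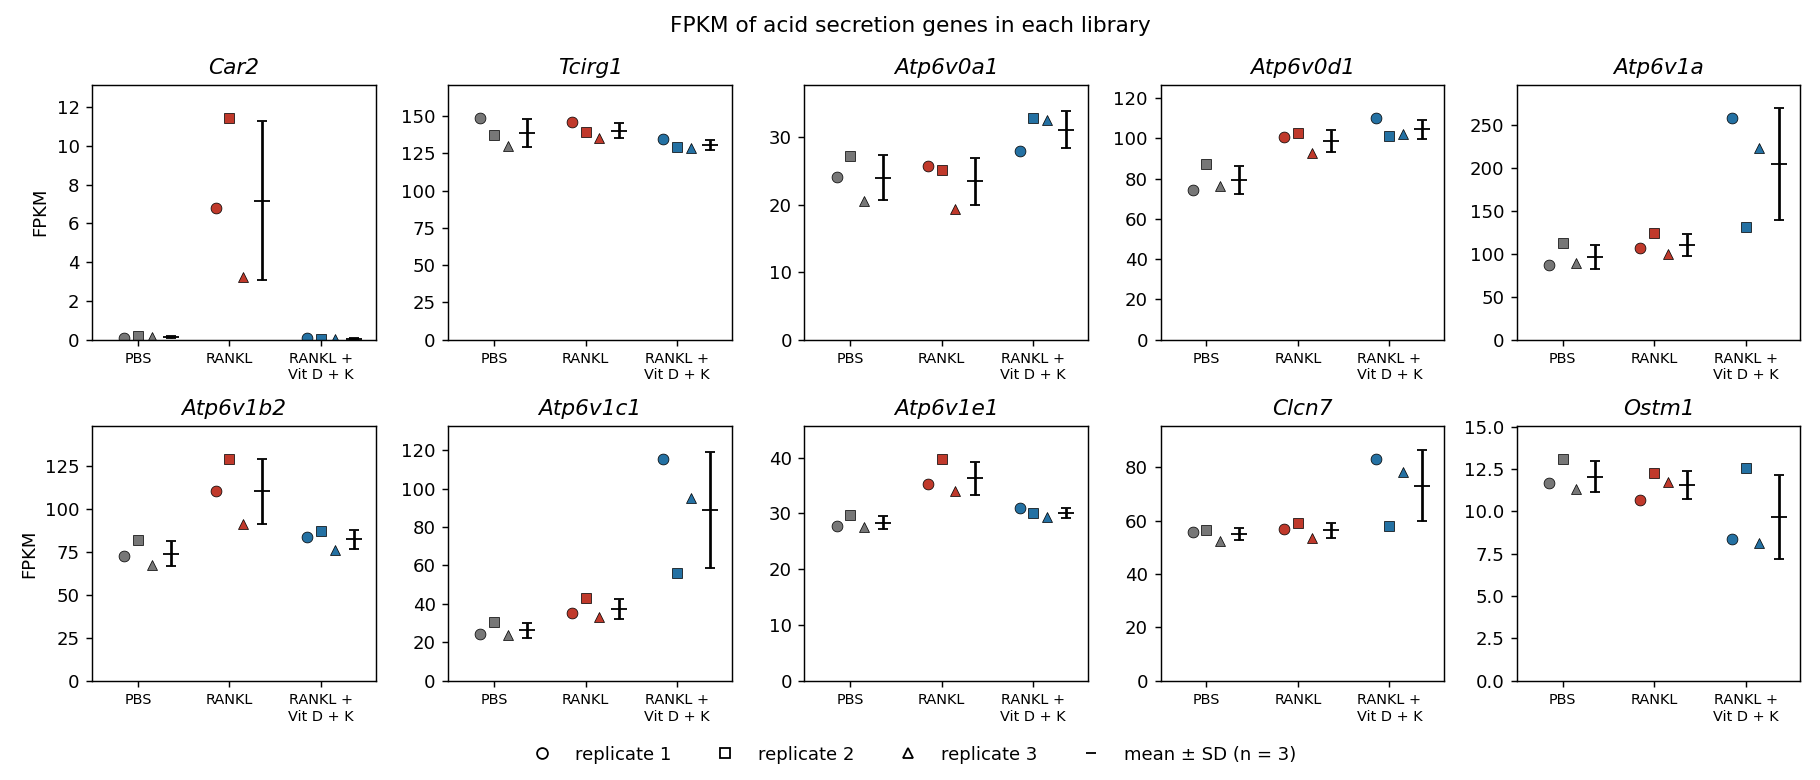
FPKM of the 10 genes in each library (vertical axes start at 0), with symbols for replicates 1, 2 and 3 and bars for the mean ± SD of 3 libraries per group. Car2 was between 3.25 and 11.4 FPKM in the RANKL libraries and under 0.2 FPKM in all others, and in the vitamin group replicate 2 had the lowest Atp6v1a, Atp6v1c1 and Clcn7 and the highest Ostm1.

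The members differed widely in level. In the PBS group Tcirg1 had the highest mean, 139 FPKM, and its 3 libraries lay above those of every other member. Atp6v1a (95.9 FPKM), Atp6v0d1 (79.3) and Atp6v1b2 (73.9) followed, with Atp6v0d1 overlapping both of the others. Clcn7 (55.1 FPKM) stood apart from its neighbours, and Atp6v1e1 (28.3), Atp6v1c1 (26.2) and Atp6v0a1 (24.0) overlapped in the same way. Ostm1 (11.3 to 13.1 FPKM) and Car2 (mean 0.139 FPKM) closed the order. In the vitamin group the highest mean was that of Atp6v1a, 204 FPKM, whose range of 131 to 258 FPKM overlapped that of Tcirg1 (129 to 135 FPKM), and Atp6v1c1 reached 88.7 FPKM, between Atp6v0d1 and Atp6v1b2, and overlapped both.

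Car2 (ENSMUSG00000027562, chromosome 3, 14886273 to 14900770 on GRCm38, as for all genes below, plus strand) encodes carbonic anhydrase 2, the enzyme whose loss causes osteopetrosis. Its counts were 17, 38 and 25 under PBS, 1233, 2069 and 613 under RANKL and 13, 7 and 4 under RANKL plus vitamins. In FPKM these were 0.0891, 0.198 and 0.13 in the PBS group, 6.81, 11.4 and 3.25 with RANKL, and 0.0712, 0.0325 and 0.0164 with the vitamins. Every RANKL library was above every other library, and the highest library with the vitamins was below the lowest of the PBS group. RANKL raised Car2 over PBS by 5.45 on the log2 scale (SE, the standard error, 0.567, adjusted p = 0.00206, edgeR, quasi-likelihood test, adjusted by Benjamini-Hochberg over all 17002 genes), and summed over libraries its share of the counts was 48.2 times as high. It was 7.15 lower on the log2 scale with the vitamins than with RANKL alone (log2 fold change -7.15, SE 0.631, adjusted p = 0.000324, edgeR), and its share of the counts was 162 times as high in the RANKL group. Both calls held without each library in turn, with log2 fold changes of 5.00 to 5.83 and of -7.77 to -6.70. Car2 was lower with the vitamins than under PBS too (log2 fold change -1.70, SE 0.584, adjusted p = 0.0436, edgeR), with 24 counts against 80 in all. That call was lost in 6 of the 9 fits that left out a library, with adjusted p-values of up to 0.151 (edgeR), and held without RANKL replicate 2, without RANKL replicate 3 or without replicate 1 of the vitamin group. It was also lost with no filter (adjusted p = 0.0755, edgeR), with only these 2 groups in the fit (0.0988) and by limma, where the log2 fold change was -0.13 at a pseudocount of 1 (adjusted p = 0.773) and -0.765 at 0.1 (0.183).

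Car2 is also a gene of red blood cell precursors, and the 6 erythroid markers in the table summed to at most 0.535 FPKM in the PBS group, 0.344 in the RANKL group and 0.438 in the vitamin group. Among 11843 other tested genes with a mean of at least 1 FPKM in some group, the genes nearest to Car2 in the plane of both log2 fold changes (RANKL against PBS and vitamins against RANKL) were Acp5 (distance 1.27), the gene of the osteoclast phosphatase TRAP, Spib (1.49), which encodes a transcription factor of the ETS family, and Kbtbd11 (1.83). Acp5 had log2 fold changes of 5.57 and -5.89, and Spib of 5.42 and -5.66. The RANKL libraries enter both comparisons.

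Across the 10 genes, RANKL against PBS gave 1 call upwards and 0 downwards, where 2.35% of all tested genes were called higher, 1.26% lower and 3.61% either way (edgeR, adjusted p under 0.05). At an unadjusted p-value under 0.05, 3 members were higher and 0 lower, as were 9.96% and 8.65% of all tested genes. DESeq2 called 2 members higher and 0 lower, and 5.86% and 3.07% of all genes. The median log2 fold change of the members was 0.133, and that of all tested genes was -0.043. The FPKM of all 3 RANKL libraries lay above all 3 PBS libraries for 5 members, Car2, Atp6v0d1, Atp6v1b2, Atp6v1c1 and Atp6v1e1, and below them for 0; these arrangements were shown by 22.4% and 12.9% of all tested genes.

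The membrane part of the pump was represented by the a and d subunits. Tcirg1 (ENSMUSG00000001750, chromosome 19, 3896050 to 3907112, minus strand) encodes a3, the isoform found at the ruffled border. Its FPKM was 148.6, 137.3 and 130.1 under PBS, 145.8, 139.1 and 135.6 under RANKL and 134.6, 129.1 and 128.5 under RANKL plus vitamins. All vitamin libraries were below all RANKL libraries, by less than the range within the PBS group. RANKL differed from PBS by a log2 fold change of -0.11 (SE 0.114, adjusted p = 0.68, edgeR), and the vitamins from RANKL by 0.05 (SE 0.114, adjusted p = 0.761, edgeR). The test scales counts by TMM factors, which were 0.891 to 1.114 over the 9 libraries, and on log2(FPKM + 1) with limma the latter value was -0.0994 (adjusted p = 0.364), so its direction depended on the scale.

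Atp6v0a1 (ENSMUSG00000019302, chromosome 11, 101009452 to 101063719, plus strand) encodes a1, an a isoform of lysosomes and synaptic vesicles. Its FPKM was 24.2, 27.3 and 20.6 under PBS, 25.8, 25.2 and 19.4 under RANKL and 28.0, 32.9 and 32.6 under RANKL plus vitamins. The vitamin libraries lay above all libraries of both other groups, which overlapped each other. Atp6v0a1 was higher with the vitamins than with RANKL by 0.56 on the log2 scale (SE 0.135, adjusted p = 0.0134, edgeR), a call that was lost without RANKL replicate 3 (adjusted p = 0.0549, edgeR) and without replicate 3 of the vitamin group (0.0583).

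A library's total for the a subunits was taken as the FPKM of Tcirg1, Atp6v0a1 and Atp6v0a2, which fill the same place in the pump. Tcirg1 made up 81.9%, 79.1% and 81.49% of it under PBS, 80.09%, 79.85% and 82.33% under RANKL, and 79.3%, 75.27% and 76.14% with the vitamins. The vitamin libraries were below all RANKL libraries (difference -3.85 percentage points, exact permutation over libraries, two-sided p = 0.1, the lowest value possible with 3 against 3), and overlapped the PBS group (difference -3.92 points, exact permutation p = 0.2). Between the RANKL and PBS groups the difference was -0.0694 points (exact permutation p = 1).

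Atp6v0d1 (ENSMUSG00000013160, chromosome 8, 105524465 to 105566047, minus strand) encodes the widely expressed d1 subunit, which joins the central stalk to the membrane ring. Its FPKM was 74.4, 87.2 and 76.3 under PBS, 100.7, 102.7 and 92.7 under RANKL and 110.1, 101.1 and 102.3 under RANKL plus vitamins. The PBS libraries were the lowest, and the other groups overlapped. RANKL differed from PBS by a log2 fold change of 0.19 (SE 0.115, adjusted p = 0.432, edgeR), and the vitamins from RANKL by 0.24 (SE 0.115, adjusted p = 0.143, edgeR). Without replicate 2 of the vitamin group the latter was 0.326 and passed (adjusted p = 0.0167, edgeR).

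Its paralog Atp6v0d2, which is not among the 10 genes, encodes the d2 subunit that osteoclasts use and need for cell fusion. Its FPKM was 3.56, 4.40 and 2.96 under PBS, 31.3, 45.1 and 22.4 under RANKL and 38.8, 12.4 and 22.0 under RANKL plus vitamins. It was higher with RANKL than in the PBS group (log2 fold change 3.04, SE 0.443, adjusted p = 0.0095, edgeR) and also with the vitamins (2.81, SE 0.439, adjusted p = 0.00148, edgeR). The vitamin and RANKL libraries overlapped (log2 fold change -0.23, SE 0.409, adjusted p = 0.701, edgeR), whereas those of Car2 did not; the difference between both genes in this comparison was not tested. Of the FPKM of both d subunits, Atp6v0d2 made up 4.37% ± 0.56 (SD, n = 3) under PBS, 24.5% ± 5.6 (SD, n = 3) under RANKL alone and 18.2% ± 7.56 (SD, n = 3) with the vitamins. The RANKL share was 20.2 points above the PBS share (exact permutation, two-sided p = 0.1, the lowest value possible), and the vitamin share differed from the RANKL share by -6.33 points (exact permutation p = 0.4). This value rested on single libraries: it was -2.69 points without vitamin replicate 2, -3.34 without RANKL replicate 2 and -10.2 without vitamin replicate 1.

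**Figure D2:**
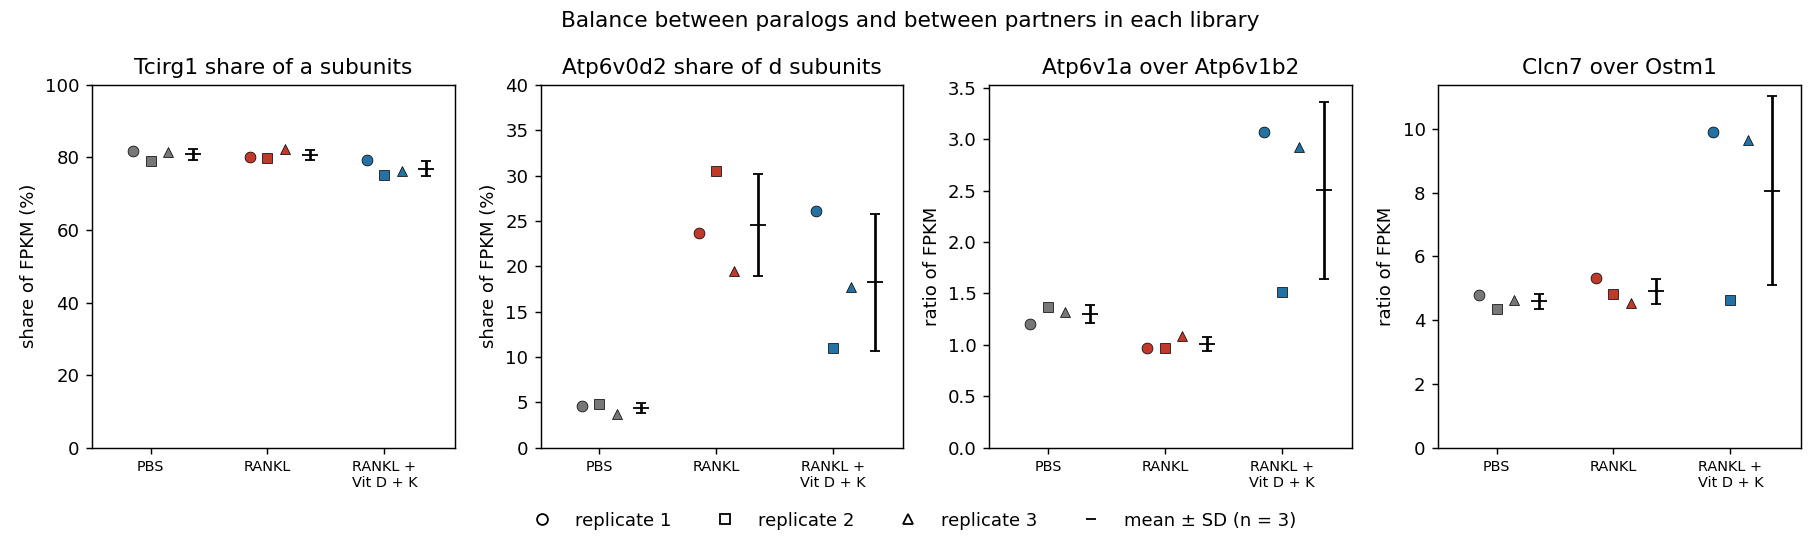
Share of Tcirg1 in the FPKM of the a subunits and of Atp6v0d2 in that of the d subunits (percent), and the FPKM ratios Atp6v1a over Atp6v1b2 and Clcn7 over Ostm1, in each library, with the mean ± SD of 3 libraries. Replicates 1 and 3 of the vitamin group had Atp6v1a over Atp6v1b2 ratios of 3.07 and 2.93 and Clcn7 over Ostm1 ratios of 9.9 and 9.67, and replicate 2 had 1.51 and 4.63.

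The vitamins were compared with RANKL alone to ask which of these genes they moved. Of the 10 genes, 4 were called higher (Atp6v0a1, Atp6v1a, Atp6v1c1 and Clcn7) and 1 lower (Car2), where 16.4% of all tested genes were called higher, 17.2% lower and 33.7% either way (edgeR). The members' median log2 fold change was 0.144 and that of all tested genes -0.0435. By FPKM, the 3 vitamin libraries lay above the 3 RANKL libraries for 3 members and below them for 4, against 17.0% and 29.2% of all tested genes. The split depended on the scale: limma on log2(FPKM + 1) called 2 higher (Atp6v1a and Atp6v1c1) and 3 lower (Car2, Atp6v1b2 and Atp6v1e1), as it did 13.0% and 22.4% of all genes. Without replicate 2 of the vitamin group, edgeR called 5 members higher and 2 lower, and 21.2% and 25.2% of all genes. The number called higher was 2 without RANKL replicate 1, 1 without RANKL replicate 3 and 1 without replicate 3 of the vitamin group. Shares of all genes called without these libraries are not given here, so a general loss of calls cannot be told apart.

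The catalytic head of V1 is built from alternating A and B subunits. Atp6v1a (ENSMUSG00000052459, chromosome 16, 44085402 to 44139705, minus strand) encodes A, which holds the ATP site. Its FPKM was 87.1, 111.9 and 88.6 under PBS, 107.2, 124.4 and 99.2 under RANKL and 257.9, 131.4 and 222.6 under RANKL plus vitamins. All vitamin libraries were above all others, replicate 2 by the least. Atp6v1a was higher with the vitamins than with RANKL by 1.07 on the log2 scale, or 2.10-fold (SE 0.262, adjusted p = 0.0142, edgeR). Without RANKL replicate 1, RANKL replicate 3 or vitamin replicate 3 the adjusted p was between 0.0506 and 0.0547 (edgeR), and without vitamin replicate 2 the log2 fold change was 1.35.

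Atp6v1b2 (ENSMUSG00000006273, chromosome 8, 69088646 to 69113711, plus strand) encodes the B2 subunit. Its FPKM was 72.6, 81.8 and 67.3 under PBS, 110.5, 128.9 and 91.2 under RANKL and 84.0, 86.9 and 75.9 under RANKL plus vitamins. The RANKL libraries were above all others. RANKL lay 0.45 above PBS on the log2 scale (SE 0.127, adjusted p = 0.0931, edgeR), and DESeq2 (adjusted p = 0.0248) and edgeR without vitamin replicate 2 (adjusted p = 0.0446) placed it past the threshold. For the vitamins against RANKL it was -0.27 (SE 0.127, adjusted p = 0.134, edgeR) and -0.405 by limma on log2(FPKM + 1) (adjusted p = 0.0452). The other B paralog, Atp6v1b1, which is typical of kidney, had at most 4 counts in any library. The FPKM ratio of Atp6v1a to Atp6v1b2, chosen after the values were seen, was 1.29 ± 0.0865 (SD, n = 3) under PBS, 1.01 ± 0.0693 (SD, n = 3) under RANKL alone and 2.50 ± 0.863 (SD, n = 3) with the vitamins, and the 3 groups did not overlap.

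Atp6v1c1 (ENSMUSG00000022295, chromosome 15, 38661933 to 38692446, plus strand) encodes C1, a stator subunit that regulates the joining of V1 to V0. Its FPKM was 24.4, 30.6 and 23.7 under PBS, 35.5, 43.0 and 33.1 under RANKL and 115.2, 56.0 and 94.9 under RANKL plus vitamins. The groups did not overlap, and replicate 2 was again the lowest of the vitamin group. Over RANKL alone, the rise was 1.44 on the log2 scale, or 2.71-fold (SE 0.275, adjusted p = 0.00535, edgeR), and it passed without each library in turn (1.14 to 1.72). Atp6v1c1 in the RANKL group was 0.38 above PBS on the same scale and not called (SE 0.27, adjusted p = 0.514, edgeR).

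Atp6v1e1 (ENSMUSG00000019210, chromosome 6, 120794305 to 120822793, minus strand) encodes E1, a subunit of the outer stalks. Its FPKM was 27.7, 29.7 and 27.5 under PBS, 35.2, 39.7 and 34.0 under RANKL and 30.9, 30.1 and 29.3 under RANKL plus vitamins. The RANKL libraries were above all others, as for Atp6v1b2. Neither the difference between RANKL and PBS, 0.23 on the log2 scale (SE 0.101, adjusted p = 0.261, edgeR) nor that of -0.12 between vitamins and RANKL (SE 0.101, adjusted p = 0.407, edgeR) passed. On log2(FPKM + 1) with limma these were 0.345 (adjusted p = 0.0498) and -0.26 (adjusted p = 0.0375).

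Clcn7 (ENSMUSG00000036636, chromosome 17, 25133391 to 25162104, plus strand) encodes ClC-7, and Ostm1 (ENSMUSG00000038280, chromosome 10, 42583822 to 42702459, plus strand) the subunit without which ClC-7 is unstable; loss of either causes osteopetrosis. The FPKM of Clcn7 was 55.9, 56.7 and 52.5 under PBS, 56.9, 59.1 and 53.5 under RANKL and 83.0, 58.1 and 78.4 under RANKL plus vitamins. Vitamin replicates 1 and 3 were above all other libraries, and replicate 2 lay within the RANKL range. Clcn7 was called higher with the vitamins than with RANKL (log2 fold change 0.54, SE 0.172, adjusted p = 0.0383, edgeR). This call was lost without any 1 of the libraries other than vitamin replicate 2 (adjusted p of 0.0555 to 0.119, edgeR), and without that library it was stronger (log2 fold change 0.734, adjusted p = 0.000122, edgeR).

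The FPKM of Ostm1 was 11.7, 13.1 and 11.3 under PBS, 10.7, 12.3 and 11.8 under RANKL and 8.39, 12.5 and 8.11 under RANKL plus vitamins. Here vitamin replicates 1 and 3 were below all other libraries. Ostm1 was not called for the vitamins against RANKL (log2 fold change -0.12, SE 0.13, adjusted p = 0.492, edgeR), and without vitamin replicate 2 it was lower (log2 fold change -0.268, adjusted p = 0.0352, edgeR). The FPKM ratio of Clcn7 to Ostm1, which was not planned in advance, was 4.59 ± 0.227 (SD, n = 3) under PBS and 4.90 ± 0.395 (SD, n = 3) under RANKL alone. It was 9.9, 4.63 and 9.67 in the vitamin libraries, so that group was split.

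**Figure D3:**
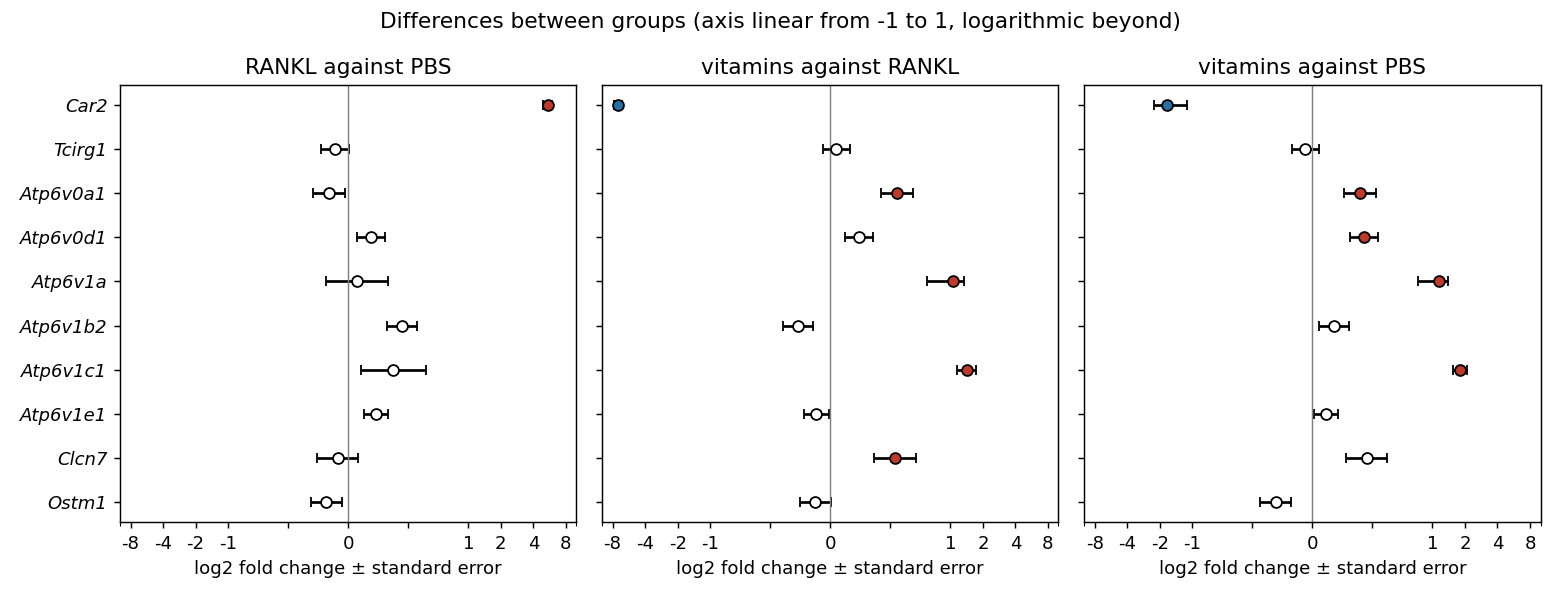
Log2 fold changes with standard errors (edgeR, 3 libraries per group) of the 10 genes in the 3 comparisons; red and blue points passed an adjusted p of 0.05 upwards and downwards, open points did not. Car2 lies at 5.45, -7.15 and -1.70, and the next largest value is that of Atp6v1c1 for the vitamins against PBS, 1.81.

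Between the vitamin and PBS groups, 4 members were called higher (Atp6v0a1, Atp6v0d1, Atp6v1a and Atp6v1c1) and 1 lower (Car2), where 19.8% of all tested genes were called higher, 21% lower and 40.8% either way (edgeR). The rise was 1.81 for Atp6v1c1 (SE 0.278, adjusted p = 0.00137, edgeR), 1.14 for Atp6v1a (SE 0.262, adjusted p = 0.00843, edgeR), 0.43 for Atp6v0d1 (SE 0.116, adjusted p = 0.0168, edgeR) and 0.40 for Atp6v0a1 (SE 0.134, adjusted p = 0.041, edgeR), all on the log2 scale. The call of Atp6v0a1 was lost without PBS replicate 1, PBS replicate 3, RANKL replicate 2 or vitamin replicate 3 (adjusted p of up to 0.105, edgeR), and by limma at a pseudocount of 1 or 0.1 (adjusted p = 0.0658 and 0.0641), with no filter (0.0543) and with only these 2 groups in the fit (0.0502). Clcn7 was not called (0.45, SE 0.172, adjusted p = 0.0619, edgeR), nor was Ostm1 (-0.31, SE 0.13, adjusted p = 0.0876, edgeR). DESeq2 (adjusted p = 0.0459), edgeR on genes whose mean FPKM reached 1 (0.0497) and limma at both pseudocounts (0.0403 and 0.0395) did call Clcn7, so limma also called 4 members higher but with Clcn7 in place of Atp6v0a1. Without vitamin replicate 2 both passed, Clcn7 at 0.647 (adjusted p = 0.00023, edgeR) and Ostm1 at -0.45 (adjusted p = 0.00299, edgeR). The members' median log2 fold change was 0.288, and that of all tested genes was -0.0422. By FPKM, 5 members lay above PBS and 1 below without overlap, against 24.8% and 27.7% of all tested genes. These libraries are those of the other comparisons, so the counts are not independent of them.

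The E-box CACGTG is the core of the site bound by MITF, TFEB and related factors, which control lysosomal genes. RefSeq start sites on GRCm38.p6 gave 10 promoters for 7 of the 10 genes (Car2, Atp6v1b2 and Atp6v1c1 had no entry), each from 250 bases before to 50 bases after the start. The E-box was found in 3 of these 10 promoters, those of Atp6v1a, Clcn7 and Atp6v0d1, and in 7.15% of all 32851 promoters of this length. A further promoter of Clcn7 lacked it. Tcirg1 had several entries, some of which overlap, so the 10 promoters are not independent. All 3 with the E-box also held the longer TCACGTGA, which contains it, as did 0.974% of all promoters. The CLEAR core, which extends the longer motif by a G before it and a C after it, was found in 0 of the 10 promoters and in 0.326% of all. The sequences below run 5′ to 3′ from 250 bases before the start to 30 bases after it, with the E-box in capitals. Atp6v0a1, called higher with the vitamins as well, is shown as a window without it, and Atp6v0d1 was called only against PBS. Of the windows shown, those of Atp6v1a and Atp6v0a1 lie wholly inside the gene positions given above, whose 5′ ends are at 44139705 and 101009452. The sequence around these 5′ ends was not searched.
Atp6v1a, chr16:44139230-44139509, minus strand: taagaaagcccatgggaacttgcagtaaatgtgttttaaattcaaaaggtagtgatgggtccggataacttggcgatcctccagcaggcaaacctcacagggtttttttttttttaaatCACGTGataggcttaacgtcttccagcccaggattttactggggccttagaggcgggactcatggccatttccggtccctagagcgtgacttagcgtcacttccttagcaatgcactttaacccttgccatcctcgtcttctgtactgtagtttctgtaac
Clcn7, chr17:25133141-25133420, plus strand: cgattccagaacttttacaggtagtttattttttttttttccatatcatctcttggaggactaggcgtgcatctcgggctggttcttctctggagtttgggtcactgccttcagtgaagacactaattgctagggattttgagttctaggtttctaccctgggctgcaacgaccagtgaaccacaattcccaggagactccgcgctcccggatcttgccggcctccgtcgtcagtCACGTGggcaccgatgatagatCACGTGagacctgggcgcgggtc
Atp6v0d1, chr8:105566035-105566314, minus strand: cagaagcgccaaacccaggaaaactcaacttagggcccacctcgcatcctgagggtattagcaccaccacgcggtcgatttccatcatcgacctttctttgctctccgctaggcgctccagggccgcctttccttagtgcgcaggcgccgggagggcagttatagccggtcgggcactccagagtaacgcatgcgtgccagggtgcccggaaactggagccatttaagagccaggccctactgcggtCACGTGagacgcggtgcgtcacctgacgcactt
Atp6v0a1, chr11:101010148-101010427, plus strand: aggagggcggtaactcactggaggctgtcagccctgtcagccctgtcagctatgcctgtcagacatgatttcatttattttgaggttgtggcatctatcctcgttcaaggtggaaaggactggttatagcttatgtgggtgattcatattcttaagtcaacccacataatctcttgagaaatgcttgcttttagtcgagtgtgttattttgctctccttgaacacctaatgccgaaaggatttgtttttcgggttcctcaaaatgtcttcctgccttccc
Counted from 0 at the first transcribed base, the E-box lay at -131 to -126 in Atp6v1a, at -15 to -10 and at 7 to 12 in Clcn7, and at -3 to 2 in Atp6v0d1. Searched on both strands, the AP-1 motif TGANTCA was found in 1 promoter, that of Atp6v0a1 at -111 to -105 (7.81% of all), and the DR3 motif of the vitamin D receptor in 0 (0.0396% of all). A match is a stretch of letters and not a binding site, and no match speaks only of this window. Of the factors, Mitf was called higher with the vitamins than with RANKL (log2 fold change 0.62, SE 0.165, adjusted p = 0.0202, edgeR), at 9.60, 8.83 and 9.04 FPKM in the RANKL group and 13.5, 10.3 and 13.9 FPKM with the vitamins. Its PBS libraries, at 12.4, 11.9 and 11.5 FPKM, overlapped those with the vitamins (log2 fold change 0.11, SE 0.165, adjusted p = 0.633, edgeR). The other factors tested were not called in this comparison: Tfeb at 0.27 (SE 0.241, adjusted p = 0.42, edgeR), Tfec at -0.15 (SE 0.164, adjusted p = 0.502, edgeR) and Tfe3 at -0.32 (SE 0.127, adjusted p = 0.083, edgeR). Tfe3 was lower with the vitamins than under PBS (-0.69, SE 0.128, adjusted p = 0.0031, edgeR).

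The other genes of acid secretion were counted from a list of 78, of which 72 were in the table and 57 passed the filter. Between RANKL and PBS, 4 were called higher and 0 lower, against 2.35% and 1.26% of all tested genes (edgeR; at an unadjusted p under 0.05, 11 were higher and 7 lower, against 9.96% and 8.65% of all genes, and DESeq2 called 7 higher and 2 lower, against 5.86% and 3.07%). The 4 were Atp6v0d2, Slc9b2, Slc4a7 and Vma21. Without vitamin replicate 2, 10 were called higher and 7 lower, against 5.46% and 5.23% of all genes (edgeR). Only 1 or 2 were called higher without any 1 PBS library, RANKL replicate 1 or RANKL replicate 2 (edgeR). Shares of all genes in the latter fits are not given here, so that fall cannot be told from a general loss of calls. Slc9b2, a sodium-proton exchanger of osteoclasts, had mean FPKM of 0.229 in the PBS group, 6.14 in the RANKL group and 0.563 with the vitamins; it was called upwards for RANKL (log2 fold change 4.59, SE 0.456, adjusted p = 0.00181, edgeR) and downwards for the vitamins against RANKL alone (-3.30, SE 0.426, adjusted p = 0.00117, edgeR). The bicarbonate transporter Slc4a7 was 0.80 higher on the log2 scale with RANKL (adjusted p = 0.0422, edgeR), and Vma21, which helps to assemble V0, was 0.75 higher (adjusted p = 0.0272, edgeR). Slc4a2, the exchanger that removes bicarbonate from osteoclasts, had mean FPKM of 8.91, 12.2 and 8.75 in the PBS, RANKL and vitamin groups and was not called in any comparison.

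For the vitamins against RANKL, 13 of the 57 tested genes were called higher and 8 lower, against 16.4% and 17.2% of all tested genes (edgeR). Against PBS, 19 were higher and 9 lower, against 19.8% and 21% of all tested genes (edgeR). Among the 10 other pump subunits tested, Atp6v1h (log2 fold change 0.94, adjusted p = 0.0136, edgeR) and Atp6v1g1 (0.92, adjusted p = 0.00624, edgeR), both of V1, were higher, and Atp6v1g2 was lower (-2.54, adjusted p = 0.00549, edgeR) at mean FPKM of 1.28 with RANKL and 0.202 with the vitamins. Of the 11 tested accessory and assembly genes, 4 were higher and 1 lower, to be read against the same shares of all tested genes, including Dmxl1 (1.01, adjusted p = 0.0172, edgeR) and Rogdi (-2.34, adjusted p = 0.00103, edgeR), which both belong to the complex that reassembles the pump. Plekhm2, an adaptor for lysosome movement, was higher (1.83, adjusted p = 0.00577, edgeR), as was the chloride-proton exchanger Clcn6 (0.88, adjusted p = 0.00739, edgeR). Rab3d, a GTPase of secretory vesicles, was lower (-1.01, adjusted p = 0.0131, edgeR), as was the endosomal sodium-proton exchanger Slc9a7 (-1.60, adjusted p = 0.00156, edgeR). The proteolipid Atp6v0c, the ring of the pump, had mean FPKM of 163, 252 and 266 in the 3 groups and was called higher only for the vitamins against PBS (log2 fold change 0.74, adjusted p = 0.00272, edgeR). Plekhm1 and Snx10, which act in the ruffled border and whose loss causes osteopetrosis, were not called for the vitamins against RANKL. Plekhm1 was lower with the vitamins than under PBS (log2 fold change -0.42, SE 0.149, adjusted p = 0.0485, edgeR) at means of 42.7, 30.1 and 31.2 FPKM in the PBS, RANKL and vitamin groups. With RANKL alone it was further below PBS, just short of the threshold (log2 fold change -0.63, SE 0.149, adjusted p = 0.0536, edgeR). Without vitamin replicate 2, 20 of the listed genes were called higher and 13 lower, against 21.2% and 25.2% of all genes (edgeR). Without RANKL replicate 1 or 3, or vitamin replicate 1 or 3, 7 to 8 were higher and 5 lower (edgeR). For the latter fits the shares of all genes are not given here, so these counts cannot be read against them.

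**Figure D4:**
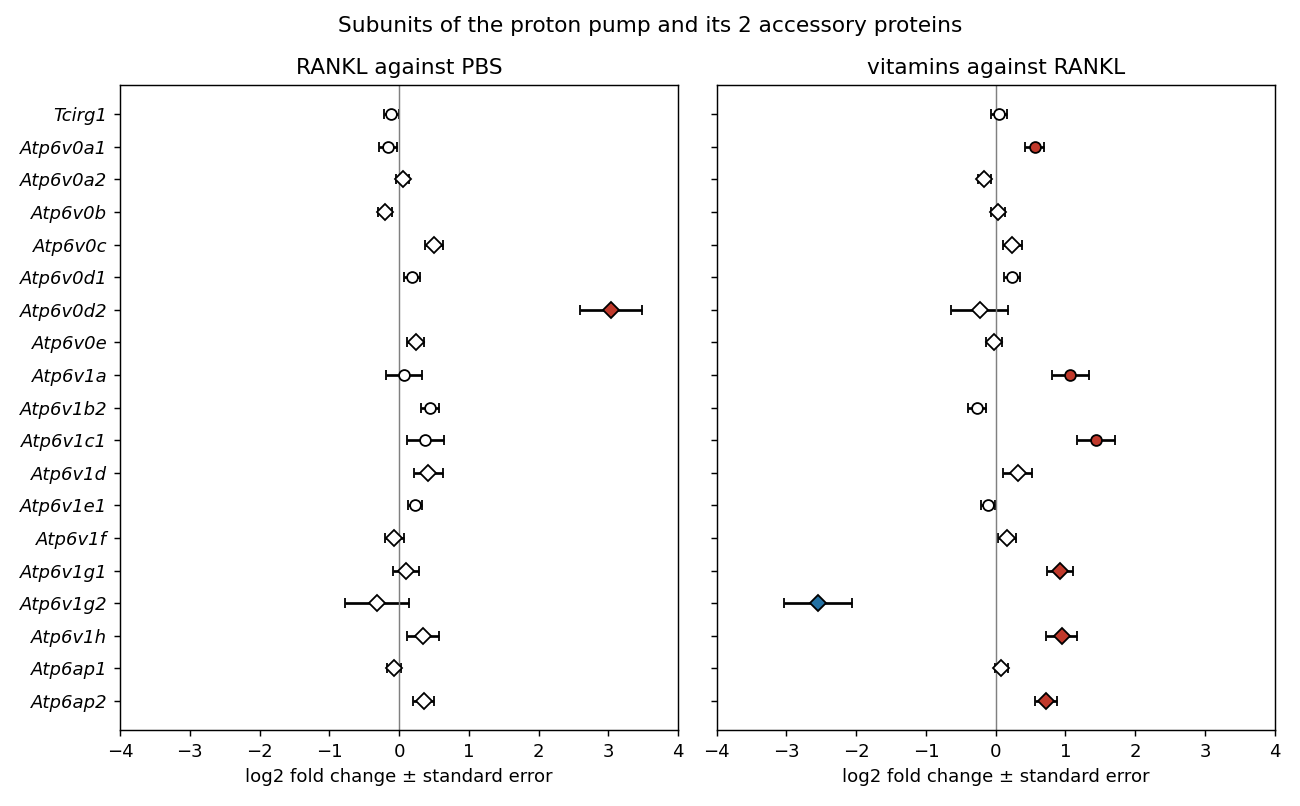
Log2 fold changes with standard errors (edgeR) of the tested pump subunits and 2 accessory proteins, members as circles and others as diamonds; filled points passed an adjusted p of 0.05. Against PBS, RANKL moved Atp6v0d2 (3.04). Against RANKL the vitamins moved subunits of V1, from -2.54 for Atp6v1g2 to 1.44 for Atp6v1c1. They also moved Atp6v0a1 of V0 (0.56) and the accessory Atp6ap2 (0.72). Only Atp6v1g2 was called lower, at mean FPKM of 1.28 with RANKL and 0.202 with the vitamins.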

How the data were processed

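RNA sequencing of BMDMs was analysed in 3 groups of 3 libraries, assigned from the sample titles. The authors deposited counts of reads per gene without normalization, and FPKM values that the authors normalized for transcript length and library size. Per the labels' processing notes the tools were cutadapt 1.9, HISAT2 2.0.4, StringTie 1.3.4d and edgeR. The notes name the human build hg38, but the gene IDs are those of mouse: 28294 of the 28379 genes have an ID in GENCODE M21 (GRCm38), 90.5% of them with the same start and end. Strand use in counting is not given in the sources used here, so reads of Atp6v1b2, Atp6v1e1 and Ostm1 cannot be told apart from those of overlapping genes on the other strand (Slc18a1, Slc25a18 and Gm15200). A count of 4 occurred 2.22 times as often as counts of 3 or 5 did on average, so 1 count may not be 1 read.

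Counts were tested in R 4.3.3 with edgeR 4.0.16 (filterByExpr, TMM, quasi-likelihood test, all 9 libraries in 1 model, Benjamini-Hochberg over 17002 genes, threshold 0.05). The standard error is the log2 fold change divided by the square root of F. Shares were compared by exact permutation over libraries. Scripts were tested on simulated data. Alternatives used DESeq2 1.42.0 and limma 3.58.1 on log2(FPKM + 1) and log2(FPKM + 0.1). Total counts were 65915112 to 68229647, and 3 counts are at most 4.55e-06% of a library, for counting error only. Same-numbered PBS and RANKL libraries deviated together weakly (correlations over genes of 0.122, 0.219 and 0.155), and vitamin and RANKL libraries less so (0.00625 to 0.107). Libraries of different numbers were not compared in this way, so these values cannot tell whether the numbers pair the groups. The main tests were unpaired, and the replicate number was used as a block in an alternative fit. The members, lists and motifs were chosen with earlier results of these data known. Named beside the members were listed genes past the threshold whose mean FPKM reached 1 in some group, at most 10 by size in each of RANKL against PBS and vitamins against RANKL (none by the comparison of vitamins against PBS), and Atp6v0a2, Atp6v0d2, Atp6v1b1, Atp6v0c, Slc4a2, Plekhm1, Snx10, Mitf and Tfeb. Tfe3 and Tfec, outside this rule, were named after their values were seen.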

Additional observations from a re-analysis of the deposited data

How the results depend on the processing

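With the replicate number as a block, no count of called members changed (1 higher with RANKL, 4 higher and 1 lower with the vitamins against RANKL) and no member's call was changed. In pairs, the d2 share was 20.2 points higher with RANKL (exact sign-flip permutation test, p = 0.25, the smallest for 3 pairs). Beyond the main fit, shares of all genes called are given above only for some fits. These are DESeq2 for RANKL against PBS, limma on log2(FPKM + 1) for the vitamins against RANKL, and both comparisons without vitamin replicate 2. The other counts below cannot be read against such a share. Counts of called members moved by over 1.5 times as follows. Higher with RANKL than PBS (1): 2 with DESeq2 or limma on log2(FPKM + 1), and 3 with only the 2 groups compared. Vitamins against RANKL (4 higher, 1 lower): 2 and 3 with limma at either pseudocount. Lower with the vitamins than PBS (1): 0 with no filter on low counts, limma at either pseudocount, or only the 2 groups compared. Smaller moves were from 4 higher against RANKL to 3 with no filter or only the 2 groups, where Clcn7 was lost (adjusted p of 0.0644 and 0.0911, edgeR), and from 4 higher against PBS to 5 with DESeq2 or a mean FPKM of at least 1, and 3 with no filter or only the 2 groups. For the other listed genes, 4 higher and 0 lower with RANKL became 7 and 2 with DESeq2 and 10 and 5 with only the 2 groups; 1 was lower with a mean FPKM of at least 1 or with limma on log2(FPKM + 1), and the 8 lower with the vitamins than RANKL became 5 with only the 2 groups. Leaving out 1 library at a time gave, for members, 1 to 2 higher and 0 lower with RANKL, 1 to 5 higher and 1 to 2 lower for the vitamins against RANKL, and 3 to 5 higher and 0 to 1 lower for the vitamins against PBS; for the other listed genes, 1 to 10 and 0 to 7, 7 to 20 and 5 to 13, and 15 to 21 and 6 to 11. The upper ends of the listed genes' counts came without vitamin replicate 2. The Tcirg1 share differed by -0.934 to 0.466 points between RANKL and PBS. Directions of uncalled values reversed for Tcirg1 (RANKL against PBS 0.0167 and 0.0168 by limma at pseudocounts 1 and 0.1, and -0.152 to 0.00133 over left-out libraries; vitamins against RANKL -0.0994, -0.1, -0.0144 with a mean FPKM of at least 1, and -0.0206 to 0.127; vitamins against PBS -0.0752 to 0.0452) and for Clcn7 between RANKL and PBS (0.0367 and 0.0373 by limma). On log2(FPKM + 0.1) the median of all genes for the vitamins against RANKL was -0.164, against -0.0435 by edgeR. The cause of these changes was not tested.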

Other observations

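Beyond the naming rule, and chosen after their values were seen, Car13 and Atp6ap2 were higher with the vitamins than with RANKL alone. Of their lists, 1 of 6 tested other carbonic anhydrases was called higher and 0 lower, and of 11 accessory and assembly genes 4 were higher and 1 lower, against 16.4% and 17.2% of all tested genes (edgeR). Car13, a cytosolic carbonic anhydrase, had mean FPKM of 7.03 in the PBS group, 11.4 in the RANKL group and 17.5 in the vitamin group (vitamins against RANKL, a log2 fold of 0.79 with a standard error of 0.227 and an adjusted p = 0.0261, edgeR). Atp6ap2, the pump's accessory subunit known as the prorenin receptor, had 71.1, 99.3 and 146 FPKM (0.72, standard error 0.151, adjusted p = 0.00761, edgeR). The genes nearest to Tcirg1 in the plane of both log2 fold changes were CT010467 (distance 0.00389), Hdgfl2 (0.00499) and Ssr4 (0.0119).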
